A study of Rattus norvegicus with 3 samples.

Results

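Non-cytotoxic T cells were taken from a single-cell RNA survey of diabetic rat skin wounds as barcodes that carried T cell receptor complex transcripts and no transcript of 7 excluded genes. A barcode, which stands for 1 droplet and usually 1 cell, was first kept if it held at least 500 UMIs (unique molecular identifiers, each counting 1 captured RNA molecule), at least 300 genes and at most 20% mitochondrial UMIs. It then had to hold at least 1 UMI of Cd3e, Cd3d or Cd3g and a UMI of at least 2 of Cd3e, Cd3d, Cd3g, Cd2, Cd247, Lck and Skap1. Barcodes with any UMI of the cytotoxic or natural killer genes Prf1, Gzmm or Klrd1, or of Csf1r, C1qa, Csf3r or Pdgfra, were left out. The rule gave 303 members of 41236 kept barcodes, out of 43701 deposited. The members were therefore chosen from measured counts, so the levels of these genes describe the choice and support nothing else. The 72 members with an Il17a UMI are described apart from the others.

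All 3 libraries came from skin wounds of wild-type male SD rats made diabetic with an intraperitoneal streptozotocin injection of 65 mg/kg at 7 to 9 weeks of age, with blood glucose above 16.7 mM. Full-thickness wounds of 15 mm were sampled at day 7, from rats of 8 to 10 weeks. The first group's wounds had been given a CO-releasing gel made of hyaluronic acid (CO hydrogel), where CO is carbon monoxide. Those of the second had been given a hyaluronic acid gel (hydrogel), and those of the third were left untreated. Each group is 1 library, and the labels do not say how many animals each holds. No difference between groups has a replicate check, and no test between groups is possible. The intervals below are exact 95% intervals that cover counting error only, and UMIs of 1 barcode are not independent of each other.

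T cells recognise antigen through a receptor that signals through the CD3 chains and CD247, and the kinase Lck starts that signal. Interleukin-17A, encoded by Il17a, and its relative interleukin-17F are secreted by helper T cells, gamma-delta T cells and other lymphocytes of barrier tissues such as skin, where they act on keratinocytes and fibroblasts and lead to neutrophil recruitment. Regulatory T cells, which depend on the transcription factor Foxp3, restrain other lymphocytes and are residents of skin.

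The libraries held 15376 barcodes (CO hydrogel), 15442 (hydrogel) and 12883 (untreated) as deposited, beside about 8000 cells per sample estimated in the series' text. Kept barcodes numbered 14925, 14346 and 11965 in that order of groups, with a median of 5820, 5622.5 and 2655 UMIs. Between 345 and 581 barcode sequences were shared by each pair of libraries, which is 2.40% to 4.86% of a library's kept barcodes, and a shared one was carried by 3 members of the CO hydrogel, 4 of the hydrogel and 1 of the untreated library. The members themselves differed less in depth: their median was 2792 UMIs in the CO hydrogel library, 4416.5 in the hydrogel library and 4143 in the untreated library, and their median mitochondrial share was 5.95%, 4.97% and 6.93%.

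The rule's own genes describe how strongly members met it. Cd3e, a CD3 signalling chain, was found in 94 of 131 CO hydrogel members, 89 of 128 hydrogel members and 33 of 44 untreated members. Cd3d, its partner chain, was found in 97, 103 and 37 of them. Skap1, an adaptor that links the receptor to integrins, was found in 48, 69 and 14. Lat, the adaptor that relays the receptor signal, which the rule did not use, was found in 64, 80 and 28 members. Most members carried more of the rule's genes than it asked for. At least 4 of the 7 T genes were present in 73 CO hydrogel, 89 hydrogel and 32 untreated members, while 31, 26 and 6 held exactly 2 and so lay just inside the rule. Just outside it, 47, 72 and 17 barcodes free of excluded genes had a single T gene, and 52, 41 and 15 T barcodes were lost to 1 UMI of Prf1, Gzmm or Klrd1. The 4 non-lymphoid exclusion genes removed 53, 77 and 12 barcodes that had passed all else, of which 29, 35 and 9 carried only 1 such UMI.

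A small set of members went against the T cell label. In 9 CO hydrogel members (6.87%) and 9 hydrogel members (7.03%) at least 5 of Siglech, Irf8, Tyrobp, Plac8, Tcf4 and Ifi30 were present together, and 0 of the 44 untreated members had this. Siglech is a receptor known from plasmacytoid dendritic cells, and Irf8 and Tcf4 are transcription factors of that lineage. All 18 of these barcodes had Cd3g. Cd3d was found in none of them, and Cd3e and the costimulatory receptor Icos were each found in 0 CO hydrogel and 1 hydrogel barcode of the set. They held 125 of the 129 Irf8 UMIs of CO hydrogel members and 183 of the 199 of hydrogel members. All Siglech UMIs of the members, 17 in the CO hydrogel and 31 in the hydrogel library, lay in them. None had an Il17a UMI. The 6 genes were chosen after the values were seen and define the set, so where their UMIs lie describes that choice. Values below are also given without these 18 barcodes where they move.

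Markers of other cell classes were low but present in the members. The 6 fibroblast markers summed to 3033 CPM (UMIs of a gene per 1000000 UMIs of the same barcodes) in CO hydrogel, 2912 in hydrogel and 889 in untreated members, with 5 of 6 detected and Pdgfra at 0 by the rule. The 8 neutrophil markers summed to 133, 719 and 928 CPM, with Csf3r and Cxcr2 at 0 in all 3 libraries. The 8 macrophage markers summed to 210, 386 and 197 CPM, with Csf1r and C1qa at 0 by the rule. For scale, barcodes gated as fibroblasts, neutrophils and macrophages carried between 15203 and 72026 CPM of their own lists. A few barcodes held much of this signal: 210 of the 213 Plvap UMIs, an endothelial gene, lay in 1 CO hydrogel member of 34764 UMIs, and 493 of the 766 Col3a1 UMIs, a fibroblast collagen, lay in 1 hydrogel member. In 4 CO hydrogel, 7 hydrogel and 1 untreated members at least 1% of UMIs came from the markers of 1 other class. The Plvap-rich CO hydrogel member was not among these or in the Siglech program, so it remains in the values given without either set. Its part in the results was not tested. The part of the other barcodes was not tested except where values without them are given.

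Non-cytotoxic T cells made up a larger share of both gel-treated libraries than of the untreated one. They were 0.878% of kept barcodes in the CO hydrogel library (131 barcodes, interval 0.734% to 1.04%), 0.892% in the hydrogel library (128 barcodes, 0.745% to 1.06%) and 0.368% in the untreated library (44 barcodes, 0.267% to 0.493%). The untreated interval did not reach either of the others, and those of the gel-treated libraries overlapped over most of their width. With every barcode thinned at random to 1000 UMIs and the rule applied again, the shares were 0.918%, 0.981% and 0.370%. The denominator matters here, because neutrophils made up 445 barcodes of the CO hydrogel library, 2976 of the hydrogel library and 6167 of the untreated library. Among barcodes outside the neutrophil class the shares were 0.905% (0.757% to 1.07%), 1.13% (0.940% to 1.34%) and 0.759% (0.552% to 1.02%). By that denominator the untreated interval overlapped both others. Cytotoxic T and natural killer barcodes, a class gated by the same libraries' Prf1, Gzmm and Klrd1, numbered 130, 243 and 28. Members numbered about as many as that class in the CO hydrogel library, fewer in the hydrogel library and more in the untreated library. That class needs no T gene and can take in natural killer cells, so its counts are not those of cytotoxic T cells. Among barcodes with the T genes and none of Csf1r, C1qa, Csf3r and Pdgfra, members were 131 of 230, 128 of 238 and 44 of 69. The remainder had a UMI of Prf1, Gzmm or Klrd1.

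**Figure D1:**
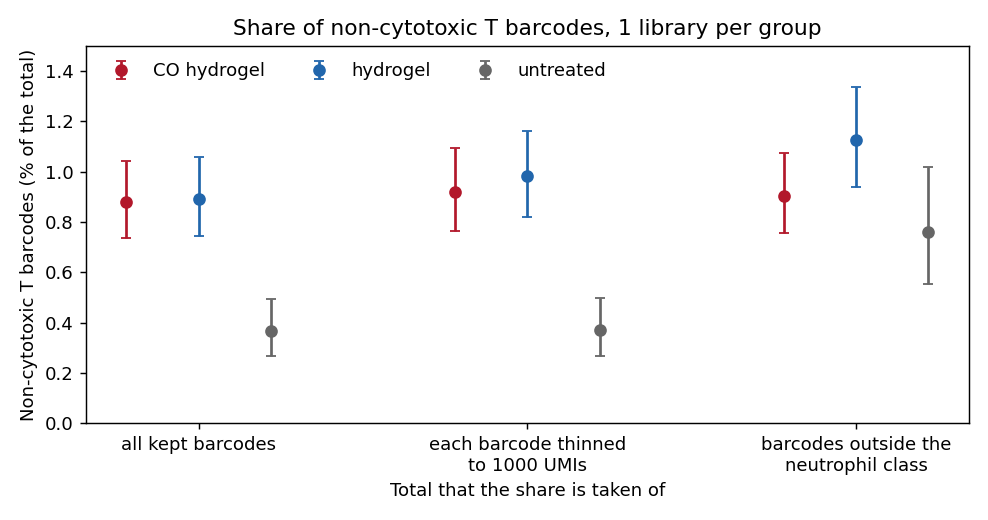
Share of non-cytotoxic T barcodes (points, percent of the total) in each library, taken of all kept barcodes, of barcodes thinned to 1000 UMIs and of barcodes outside the neutrophil class, with exact 95% binomial intervals (bars). The gel-treated shares of 0.878% (CO hydrogel) and 0.892% (hydrogel) lie above the untreated share of 0.368% when all kept barcodes are counted, and the intervals overlap when neutrophils are left out of the total.

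The genes that set the members most apart from the other barcodes of their library are given as a description, since the members were chosen from the same counts. The 15 genes with the highest smallest ratio were Foxp3, Trat1, Tnfrsf4, Cd28, Cd40lg, Il17f, Ctla4, Tnfrsf9, Ccr6, Camk4, Icos, Slamf1, Il2ra, Tnfsf8 and Prkcq. Foxp3 stood at 97.3 CPM in CO hydrogel, 111 in hydrogel and 91.3 in untreated members, which was 152, 154 and 466 times the level in the remaining barcodes. Icos, a costimulatory receptor of activated T cells, was the most abundant of the 15, at 1074, 1203 and 1519 CPM, and was found in 74.0%, 76.6% and 90.9% of members. Beside this, Icos stood at 269.5, 367 and 459 CPM in cytotoxic barcodes, and it was found in 0.899%, 1.11% and 0.178% of neutrophils. Ccr6, the receptor for the skin chemokine CCL20, was found in 62 of 131, 63 of 128 and 22 of 44 members, against 3.85%, 4.53% and 7.14% of cytotoxic barcodes.

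The coreceptors Cd4 and Cd8 were sparse. Cd4, which marks helper cells, was found in 11 CO hydrogel, 24 hydrogel and 14 untreated members, and Cd8a or Cd8b in 11, 11 and 2. Neither was found in 109, 93 and 28 members (83.2%, 72.7% and 63.6%). At the depth of these barcodes a missing UMI does not show that a coreceptor is absent, so members were not split by coreceptor. Gata3, a transcription factor of type 2 helper and regulatory T cells, was found in 51, 48 and 15 members. Ccr7, a lymph node homing receptor of naive T cells, was rarer, in 2, 4 and 0 members.

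Il17a was carried by about 1 in 4 members of the gel-treated libraries. Il17a-positive members numbered 32 of 131 in the CO hydrogel library (24.4%, 17.3% to 32.7%), 33 of 128 in the hydrogel library (25.8%, 18.5% to 34.3%) and 7 of 44 in the untreated library (15.9%, 6.64% to 30.1%). All 3 intervals overlapped. After thinning to 1000 UMIs Il17a was left in 24 of 127, 28 of 127 and 4 of 44 members that could be thinned, again with overlapping intervals of the share. Positive members were deeper than negative ones, with a median of 3086 against 2743 UMIs in the CO hydrogel library, 5634 against 4188 in the hydrogel library and 7437 against 3607 in the untreated library. Beside these shares, Il17a was found in 0.225%, 0.840% and 0.0324% of neutrophils, at a median of 1363, 1895.5 and 2053 UMIs, and in 0.308%, 1.84% and 0.401% of fibroblasts, at 7460, 8630 and 9607 UMIs.

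The promoters of Il17a and Il17f are shown because Il17a defines the set described next and Il17f encodes its relative. Both are RefSeq sequences of the GRCr8 assembly, which is not the build the submitters used, running from 250 bases before to 50 bases after the annotated gene start. That of Il17a is chr9:30640594-30640893 on the plus strand, and that of Il17f is chr9:30697869-30698168 on the minus strand, so the genes are neighbours. Capitals mark AGGTCA on either strand (TGACCT on the other), the core letters bound by many nuclear receptors, and TATAAA.
Il17a: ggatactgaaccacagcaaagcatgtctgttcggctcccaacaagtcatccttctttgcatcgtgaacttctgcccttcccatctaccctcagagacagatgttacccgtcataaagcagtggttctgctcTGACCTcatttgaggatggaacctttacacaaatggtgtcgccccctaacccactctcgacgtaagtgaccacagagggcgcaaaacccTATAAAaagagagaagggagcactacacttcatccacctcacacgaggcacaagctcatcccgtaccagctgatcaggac
Il17f: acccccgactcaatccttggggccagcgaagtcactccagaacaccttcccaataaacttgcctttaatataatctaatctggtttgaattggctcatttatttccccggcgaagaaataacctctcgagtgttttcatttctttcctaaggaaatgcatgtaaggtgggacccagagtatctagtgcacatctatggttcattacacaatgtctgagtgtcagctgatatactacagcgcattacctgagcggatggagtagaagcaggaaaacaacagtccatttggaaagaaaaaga

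The Il17a window held TGACCT at -119 to -114 and TATAAA at -30 to -25, counted from the gene start, and the Il17f window held neither motif. Of 22 genes, the type 17 list and Il17a, 16 had a promoter in the table. AGGTCA on either strand was present in 4 of these 16, Il17a, Il23r and Ccr6 among them, beside 16.2% of all 33469 promoters of that length. TATAAA on either strand was present in 2 of the 16, beside 14.2% of all. A listed gene was counted if any of its promoters held the motif, while the shares of all are taken over single promoters. The counts and shares are therefore not in like units. These are letter matches, not binding sites.

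The Il17a level differed more than the share of positive members did. Members held 292 Il17a UMIs in the CO hydrogel library, 1335 in the hydrogel library and 175 in the untreated library. That is 660 CPM (587 to 741), 1772 CPM (1678 to 1870) and 841 CPM (721 to 975). The median positive member had 4 UMIs in the CO hydrogel, 18 in the hydrogel and 4 in the untreated library, and the highest had 55, 218 and 90. Members with at least 10 Il17a UMIs numbered 8, 20 and 3, and members with a single one 9, 4 and 3. By these counts the hydrogel library had the most strongly positive members, at a share like that of the CO hydrogel library. The counts are not adjusted for depth, and positive members had a median of 3086, 5634 and 7437 UMIs. As a percent of a member's UMIs, the highest Il17a value was 2.05%, 3.71% and 0.870%, so CO hydrogel then stood above untreated. The log2 ratio of CPM was -1.42 for CO hydrogel over hydrogel, -0.35 for CO hydrogel over untreated and 1.07 for hydrogel over untreated, and Il17a is part of how these cells are described, so the ratios are not a test. In each library 3 barcodes weighed heavily, holding 39.7%, 37.1% and 96.0% of the Il17a UMIs. Without them the level was 410 CPM in CO hydrogel, 1141 in hydrogel and 38.3 in untreated members, so the untreated level rests on 3 barcodes. The order of CO hydrogel and untreated members was then reversed. It was also reversed by a mean over barcodes, at 744 CPM in CO hydrogel and 447 in untreated members, so the sign of their ratio depends on the measure.

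**Figure D2:**
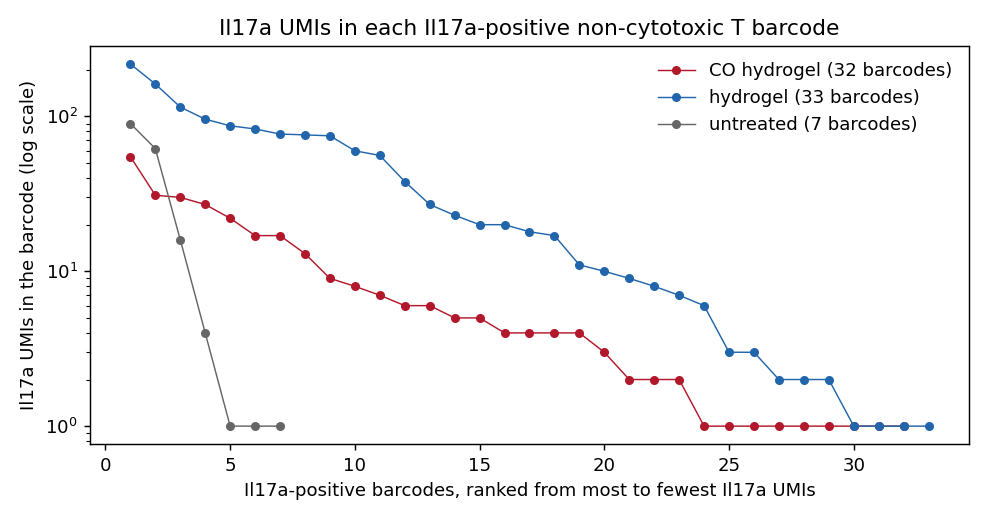
Il17a UMIs in each Il17a-positive member (points, log axis) against its rank within its library, from most to fewest UMIs, with a line joining the barcodes of a library. The hydrogel line lies above the other lines until it reaches 1 UMI and starts at 218 UMIs, while those of the CO hydrogel and untreated libraries start at 55 and 90. The UMIs are not adjusted for the depth of each barcode.

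Members held less than 1 in 2 of the Il17a transcripts of their library. Of 670 Il17a UMIs in the CO hydrogel library, members held 43.6%, against 31.5% of 4240 in the hydrogel library and 34.7% of 504 in the untreated library. T barcodes with a UMI of Prf1, Gzmm or Klrd1, which the rule leaves out, held 41.6%, 49.0% and 28.0%, in 26, 44 and 4 positive barcodes. T barcodes left out for Csf1r, C1qa, Csf3r or Pdgfra alone held 10.7%, 13.2% and 33.1%, in 11, 18 and 5 positive barcodes. In the untreated library the latter thus held more than the former. Barcodes without any CD3 UMI held 2.84%, 5.75% and 4.17%. A single cytotoxic UMI was found in 20 of the 26 CO hydrogel barcodes, 26 of the 44 hydrogel barcodes, and in 2 of the 4 untreated barcodes. By transcripts the order differed in the hydrogel library but not in the CO hydrogel library. Barcodes with 1 cytotoxic UMI held 211, 876 and 52 Il17a UMIs, and those with 2 or more held 68, 1201 and 89. Among all Il17a-positive T barcodes, 69, 95 and 16 in number, Klrd1, a receptor chain shared by natural killer and some T cells, was found in 15, 26 and 3, and Prf1, which encodes perforin, in 13, 23 and 3. Gzmm, a granzyme, was found in 1, 1 and 0. Il17a-positive cells were therefore counted only in part by the non-cytotoxic rule. The level with the Prf1, Gzmm or Klrd1 barcodes kept is given in the closing section.

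**Figure D3:**
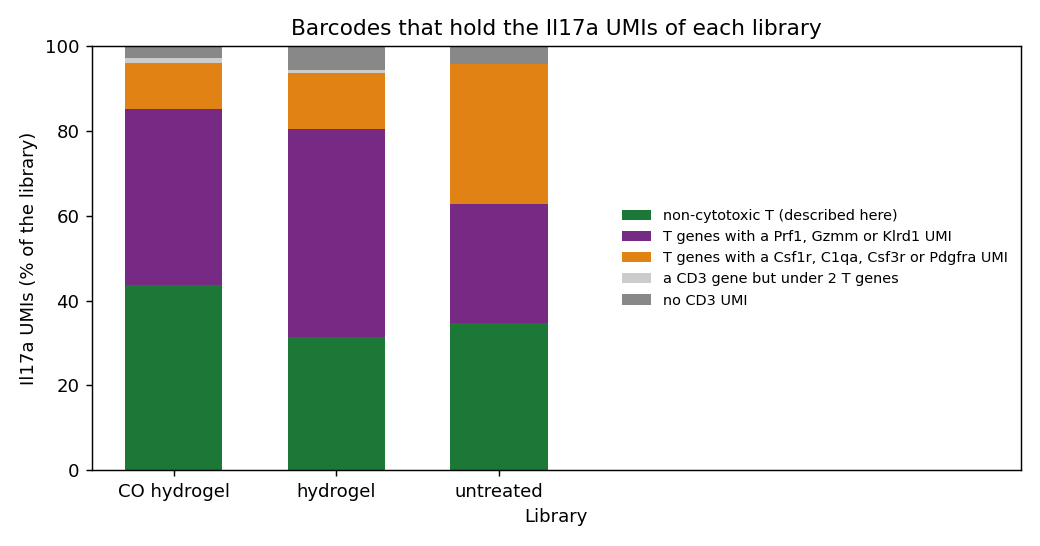
Where the Il17a UMIs of each library lie, in percent of all its Il17a UMIs, by barcode set (stacked colours: the members, T barcodes with a cytotoxic gene, T barcodes with another excluded gene, barcodes with a CD3 gene but too few T genes, and barcodes without CD3). Members hold 43.6%, 31.5% and 34.7% in the CO hydrogel, hydrogel and untreated libraries.

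Il17f went with Il17a. It was found in 6 Il17a-positive and 2 Il17a-negative members of the CO hydrogel library, in 9 and 3 of the hydrogel library and in 3 and 0 of the untreated library. Its UMIs numbered 36, 145 and 37, of which the single richest barcode held 10, 36 and 24. Few members held the other listed interleukins or Ifng. Il22, a type 17 cytokine that acts on epithelium, was found in 1, 6 and 3 members. Ifng had 0, 2 and 0 UMIs, Csf2 had 0, 2 and 0, and Il4 and Il13 had none in any library. A count of 0 allows up to 3 UMIs per library. Tgfb1, which encodes a cytokine made by many cell types, was the most widely found of the listed cytokines, in 51, 56 and 19 members, followed by Tnfsf8, the ligand of CD30, in 17, 29 and 9. Ccl5, a chemokine of effector lymphocytes, had 37, 8 and 108 UMIs, of which 1 untreated barcode held 106. Areg, a tissue repair growth factor, had 5, 132 and 37 UMIs, but 1 barcode held 87 of the 132 and 1 held 36 of the 37.

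Receptors and factors of type 17 lymphocytes were described in the members with Il17a and without Foxp3, 24 in the CO hydrogel, 26 in the hydrogel and 7 in the untreated library. Ccr6 was found in 16, 16 and 5 of them (66.7%, 61.5% and 71.4%). Rora, which encodes a nuclear receptor of type 17 and innate lymphocytes, was found in 11, 17 and 3, and the factor Maf in 9, 8 and 2. Il23r, the interleukin-23 receptor chain that sustains type 17 cells, was found in 4, 6 and 0. Blk, a kinase used by interleukin-17-producing gamma-delta T cells in mice, was found in 7, 4 and 2, against 3, 1 and 0 of the members with neither Il17a nor Foxp3 nor the Siglech program, which are more numerous (76, 68 and 28). Zbtb16, the factor of innate-like T cells, was found in 1, 6 and 0 of the first and in 0, 0 and 0 of the second. The other genes were common in the second too, with Ccr6 in 44.7%, 45.6% and 39.3% and Maf in 17.1%, 23.5% and 14.3%. Rora was found in 45.8%, 65.4% and 42.9% of the first and 39.5%, 42.6% and 46.4% of the second. Il23r was found in 16.7%, 23.1% and 0% of the first and 10.5%, 8.82% and 10.7% of the second. In the untreated library Rora and Il23r were thus rarer in the first. The constant genes of the gamma-delta receptor are not analysed here, so the members were not divided by receptor type.

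**Figure D4:**
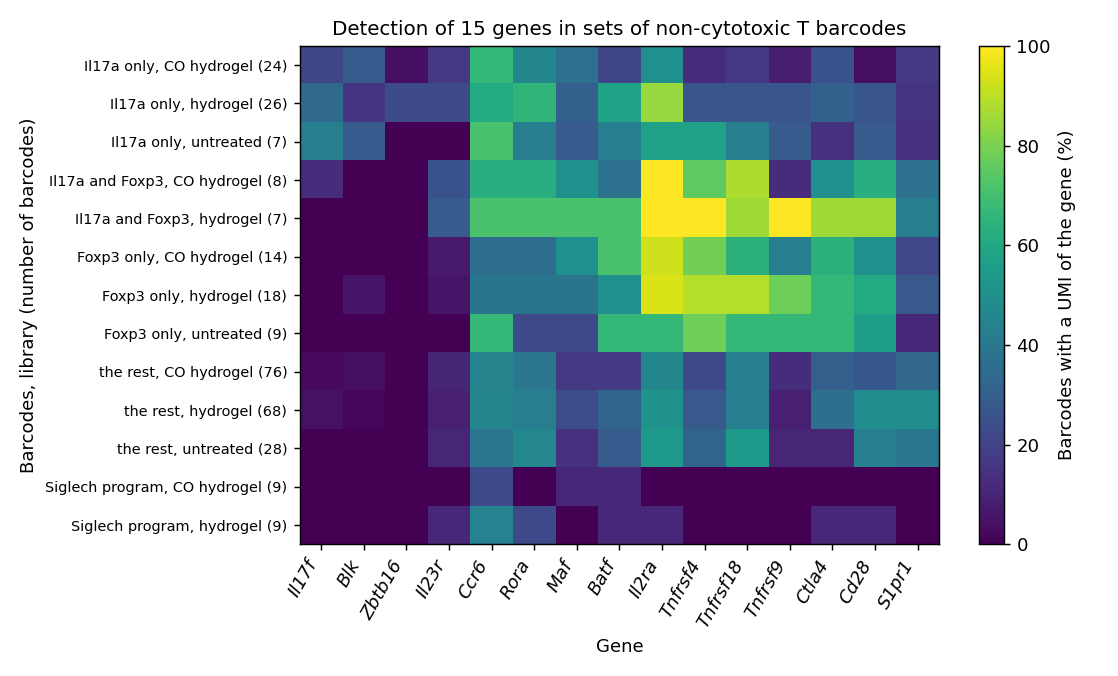
Share of barcodes with a UMI (colour, percent) of 15 genes (columns) in sets of members by library (rows), the sets being Il17a alone, Il17a with Foxp3, Foxp3 alone, the rest and the Siglech program, with the number of barcodes in brackets. Il17f, Blk and Zbtb16 are mostly found with Il17a alone, and Il2ra, Tnfrsf4 and Ctla4 are found most often with Foxp3.

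Positive and negative members were set against each other within each library after thinning to 1000 UMIs, in the 2 libraries with at least 10 positive barcodes. These were 31 against 96 barcodes in the CO hydrogel library and 33 against 94 in the hydrogel library. Of 1366 genes with at least 30 UMIs, 26.4% were higher in positive members of both libraries and 30.3% were lower in both. At a mean of at least 2-fold the shares were 3.15% (43 genes) and 8.57% (117 genes). Since Il17a split the groups, what follows describes them. SDs are over these 2 libraries.

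The gene with the highest mean ratio was Il17f. It had 9 UMIs in positive and 0 in negative CO hydrogel members, and 28 and 2 in hydrogel members. Id2, a regulator of innate-like and tissue lymphocytes, had 258 CPM in positive and 62.5 CPM in negative CO hydrogel members, and 212 and 63.8 CPM in hydrogel members, but that rests on 8, 6, 7 and 6 UMIs. Rgs2, a regulator of G protein signalling, had 516 and 208 CPM, and 545 and 138 CPM, a mean log2 ratio of 1.64 ± 0.47. Nr4a1, an early response factor of T cell receptor signalling, had 290 and 104 CPM, and 273 and 95.7 CPM, a mean of 1.49. That rests on 9, 10, 9 and 9 UMIs. Ikzf3, a zinc finger factor of lymphocytes, had 484 and 198 CPM, and 424 and 128 CPM, a mean of 1.51. Without thinning the mean was 0.72 for Nr4a1 and 1.02 for Ikzf3. Spg21, Samsn1, Sla, Cwc25, Ech1, Irs2 and AABR07027872.1 were also among the 12 highest, though Spg21 and Ech1 did not keep one sign in both libraries without thinning.

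Tissue retention genes were higher in Il17a-positive members. The 4 of 7 list genes that could be read, Rgs1, Rgs2, Itgb7 and Cd69, were higher in both libraries, beside 26.4% of all genes, with a median mean log2 ratio of 0.94, beside -0.06 over all genes read. Rgs1 had 1258 CPM in positive and 521 CPM in negative CO hydrogel members, and 1576 and 617 CPM in hydrogel members, a mean of 1.31 ± 0.06. S1pr1, the receptor by which lymphocytes leave tissue, was lower, with 96.8 and 198 CPM, and 60.6 and 223 CPM, a mean of -1.46 ± 0.60. Of the 7 readable type 17 genes, Il17f, Il2ra and Maf were higher in both libraries and Il18r1 was lower. Without thinning, 9 could be read, of which 7 were higher in both, Ccr6, Il23r, Batf and Rora added, and Il18r1 differed in sign between the libraries. Of the 12 readable genes of the dissociation and stress list, 6 were higher in both libraries and Atf3, a stress-induced factor, was lower. Without the Siglech program 8 were higher, Atf3 among them (mean 0.47, against -0.31 with it), and Dnajb1, a heat shock cochaperone, was lower. Without thinning 4 were higher and 4 lower. Dusp1, a phosphatase of that list, had 452 and 198 CPM, and 727 and 255 CPM. The part of these stress genes in the other differences was not tested.

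The genes with the lowest ratios in positive members were in part those of the Siglech program. Plac8, Tyrobp, Ifi30 and Irf8 had the lowest mean ratios, and the 18 barcodes of the program are all Il17a-negative. Without these barcodes Plac8, a small protein of leukocytes, still had a mean log2 ratio of -3.32 and Tyrobp of -0.76, while Ifi30 and Irf8 no longer reached the minimum count. Pdcd4, a translation inhibitor, had 96.8 and 271 CPM in positive and negative CO hydrogel members and 30.3 and 298 CPM in hydrogel members, a mean of -2.39, or -2.03 without the program. Apbb1ip, an adaptor of integrin activation, had a mean of -2.35, or -2.02 without it. The retention list kept a median of 0.91 without the program, and S1pr1 stood at -1.60.

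Foxp3-positive members were the other large set. Foxp3 was found in 22 CO hydrogel (16.8%), 25 hydrogel (19.5%) and 9 untreated members (20.5%), against 0%, 0.168% and 0.0162% of neutrophils. Il17a was present in 8 CO hydrogel, 7 hydrogel and 0 untreated Foxp3-positive members, leaving 14, 18 and 9 with Foxp3 alone. Il2ra, the high-affinity interleukin-2 receptor chain of regulatory T cells, was found in 13, 17 and 6 of those. Tnfrsf4, a costimulatory receptor also known as OX40, was found in 11, 16 and 7, and Ctla4, an inhibitory receptor, in 9, 12 and 6. By contrast Tnfrsf4 was found in 3, 7 and 4 members with Il17a alone. Members with both Il17a and Foxp3 carried the receptors too: Il2ra was found in all 8 and all 7, and Tnfrsf4 in 6 and 7. These double-positive barcodes had a median of 5438.5 UMIs in the CO hydrogel and 15361 in the hydrogel library. The medians of all members were lower, at 2792 and 4416.5 UMIs. The doublet caller marked 0 of the double-positive barcodes, but its marks are a fixed share of each library. Whether each of these barcodes holds 1 cell was not tested.

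Levels of all genes were then set against each other between libraries, as UMIs summed over the members. A gene was read if it had at least 50 UMIs over both libraries and counted past 2-fold. For CO hydrogel over hydrogel, 77 of 3140 genes were at least 2-fold higher and 133 at least 2-fold lower, which is 2.45% and 4.24%, together 6.69%, with a median log2 ratio of -0.08. For CO hydrogel over untreated, 138 of 1789 genes were higher and 39 lower (7.71% and 2.18%, together 9.89%, median 0.01). For hydrogel over untreated, 227 of 2600 were higher and 25 lower (8.73% and 0.962%, together 9.69%, median 0.11). Without the Siglech program the counts were 76 and 144 of 2886 genes, 101 and 41 of 1651, and 165 and 24 of 2414. T cell identity genes outside the rule lay within 2-fold in all of these comparisons (0 of 12, 0 of 10 and 0 of 12 readable genes past it).

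Proliferation genes were lower in CO hydrogel members than in hydrogel members. Of the 5 genes of the 10-gene list that could be read, 4 (Mki67, Stmn1, Top2a and Cenpf) were more than 2-fold lower, beside 4.24% of all genes, and all 5 were below 0, with a median of -2.08. Mki67, a marker of dividing cells, had 34 UMIs (76.9 CPM) in CO hydrogel, 243 (323 CPM) in hydrogel and 46 (221 CPM) in untreated members. The log2 ratio was -2.07 (-2.63 to -1.55) for CO hydrogel over hydrogel and -1.52 (-2.21 to -0.85) for CO hydrogel over untreated. Stmn1, which destabilises microtubules in dividing cells, had 60, 433 and 84 UMIs, with ratios of -2.08 and -1.57. The genes named by the 10 lowest ratios included other genes used by dividing cells: Mcm6, a subunit of the replicative helicase, Lig1, a DNA ligase, Smc2, a condensin subunit, and Cenpw, a centromere protein.

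Few barcodes carried this signal. Members with at least 3 of the 10 proliferation genes numbered 7 of 131 in CO hydrogel (5.34%, 2.18% to 10.7%), 23 of 128 in hydrogel (17.97%, 11.7% to 25.7%) and 4 of 44 in untreated members (9.09%, 2.53% to 21.7%). They held 60.5%, 92.5% and 84.8% of the list's UMIs. Of them, 2, 11 and 1 were Il17a-positive and 5, 9 and 1 Foxp3-positive. They were deeper than other members, with a median of 6122, 11079 and 9809.5 UMIs against 2729.5, 3903 and 3899.5. After thinning, 2, 7 and 2 barcodes were left (1.57%, 5.51% and 4.55%), with overlapping intervals. The part of depth in this difference was not tested beyond that.

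Among 10 readable genes of the activation list, Irf4 alone was past 2-fold in CO hydrogel over hydrogel, and the list's median was -0.02. Irf4, a factor induced by T cell receptor signalling, had the lowest ratio of the genes named for that comparison, with 13 UMIs in 11 CO hydrogel, 125 in 49 hydrogel and 14 in 9 untreated members (29.4, 166 and 67.3 CPM in that order of groups). The log2 ratio was -2.50 (-3.45 to -1.67) for CO hydrogel over hydrogel and 1.30 for hydrogel over untreated, and the first was -2.49 without the Siglech program. Barcodes gated as dendritic or B cells had up to 6.64 times the Irf4 CPM of these members, and their part in the difference was not tested. Tnfrsf9, the costimulatory receptor 4-1BB, had 51, 283 and 88 UMIs, at 115, 376 and 423 CPM. Its ratio was -1.70 for CO hydrogel over hydrogel and -1.87 for CO hydrogel over untreated. Of the 7 readable genes of the regulatory T list, Tnfrsf9 was the 1 past 2-fold in CO hydrogel over hydrogel, beside 6.69% of all genes. All 7 were below 0, beside 1821 of 3140 genes read, with a median of -0.52 against -0.08 over all genes. Foxp3 itself stood at -0.20 in that comparison and 0.09 in CO hydrogel over untreated.

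Of the 20 type 17 list genes, 7 or 8 could be read in each comparison. Of the 8 readable in CO hydrogel over hydrogel, only Il17f was past 2-fold, at -1.24, beside 6.69% of all genes, and the list's median was 0.28. Batf, a factor needed by type 17 helper cells, stood at -0.96 there, and at -1.02 without the Siglech program and the barcodes rich in another class. In CO hydrogel over untreated, Il17f was again the 1 gene of 7, at -1.13, and in hydrogel over untreated 0 of 7 passed. Ccr6 stood at 271, 215 and 231 CPM, with log2 ratios of 0.34, 0.23 and -0.10, and Rora at 0.23, 0.04 and -0.18. The untreated level of Il17f rests largely on 1 barcode, with 24 of its 37 UMIs. Leaving out the Siglech program and the barcodes rich in markers of another class left 13 untreated UMIs (64.3 CPM), against 36 (93.9 CPM) in CO hydrogel and 138 (220.4 CPM) in hydrogel members. The CO hydrogel level was then the higher one and the gene too low to be read in that comparison, and the ratio for hydrogel over untreated was 1.78 in place of 0.11. Il17ra, a receptor chain for interleukin-17A, was among the 10 genes highest in CO hydrogel over hydrogel, with 42, 32 and 8 UMIs and a log2 ratio of 1.16 (0.46 to 1.87).

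**Figure D5:**
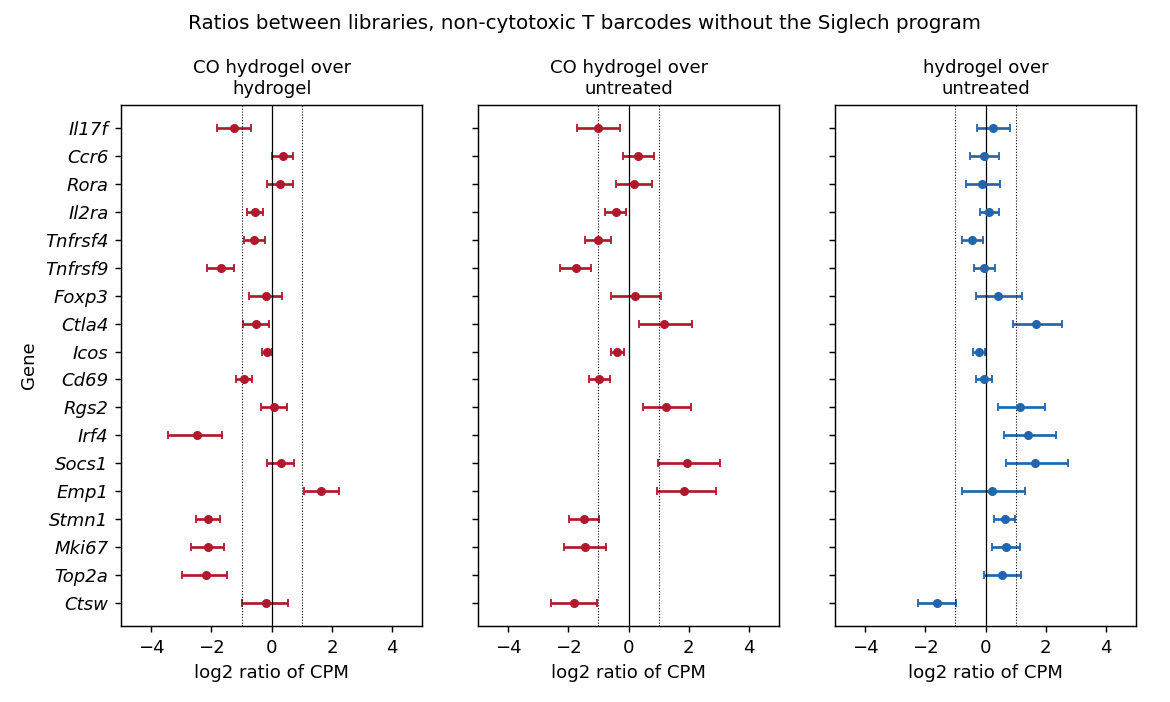
Log2 ratio of CPM between libraries (points) for 18 genes in the members without the Siglech program, for CO hydrogel over hydrogel, CO hydrogel over untreated and hydrogel over untreated, with exact 95% intervals (bars) and dotted lines at 2-fold. Mki67, Stmn1, Irf4 and Tnfrsf9 lie below 0 in CO hydrogel over hydrogel, and Ccr6 and Foxp3 lie near 0.

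Several genes stood apart from the untreated members in both gel-treated libraries. These comparisons share the untreated library, so each is given with its own values only. Ctla4 had 66, 161 and 15 UMIs (149, 214 and 72.1 CPM), with log2 ratios of 1.05 for CO hydrogel over untreated and 1.57 for hydrogel over untreated. Socs1, a feedback inhibitor of cytokine signalling, had 85, 110 and 10 UMIs (192, 146 and 48.1 CPM), with ratios of 2 and 1.60. Sik1, a kinase of the cAMP response, had ratios of 1.96 and 1.37, and Vps37b, a subunit of the endosomal sorting machinery, 2.65 and 1.56. Ctsw, a protease of cytotoxic lymphocytes, was lower, with 24, 47 and 43 UMIs (54.3, 62.4 and 207 CPM) and ratios of -1.93 and -1.73. Emp1, a membrane protein of many tissues, had 203, 125 and 11 UMIs. Its ratio of 3.12 for CO hydrogel over untreated was 1.85 without the Siglech program, and that of 1.65 for hydrogel over untreated was 0.20.

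Some of the highest ratios over untreated members came with the Siglech program, which 0 of the 44 untreated members had. Irf8 had 129, 199 and 1 UMIs in CO hydrogel, hydrogel and untreated members, at 9.87, 23.1 and 4.81 CPM without the program. Ifi30, a lysosomal thiol reductase, had 377, 553 and 22 UMIs, and its log2 ratio for hydrogel over untreated was 2.80 with the program and -0.47 without it. Igf2r, a receptor that sorts lysosomal enzymes, had 81, 106 and 3 UMIs, at 24.7, 37.5 and 14.4 CPM without the program. Cxcl10, an interferon-induced chemokine, had 9, 107 and 0 UMIs, so its log2 ratio for hydrogel over untreated was at least 3.30 against the floor of 3 UMIs, and 1 barcode held 60 of the 107. Among the genes lowest in hydrogel over untreated, the coreceptor Cd4 had 32 and 18 UMIs (42.5 and 86.5 CPM, log2 ratio -1.03), and Cldnd1, a claudin-like membrane protein, had 96 and 73 UMIs (127 and 351 CPM, -1.46).

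Genes of the dissociation and stress list went both ways against untreated members. Of the dissociation and stress list, 3 of 12 readable genes (Zfp36, Dusp1 and Egr1) were over 2-fold higher in CO hydrogel than in untreated members, beside 7.71% of all genes, and 5 of 13 (these and Jun and Hspa1b) in hydrogel over untreated, beside 8.73%. In another cell class, 7 of these 12 and 6 of these 13 genes were over 5 times higher than in the members. Without them the list's median fell from 0.37 to 0.006 (CO hydrogel over untreated) and from 0.33 to 0.08 (hydrogel over untreated). The part of RNA from such classes was not tested. Dusp1 had 135, 254 and 21 UMIs, with ratios of 1.60 and 1.74. In CO hydrogel over untreated, Atf3 stood at -0.99, Fos at -0.68 and Jund at -0.57. Without the Siglech program and the barcodes rich in another class, 2 of 11 genes were higher (Zfp36 and Dusp1) and 2 lower (Fos and Atf3) in CO hydrogel over untreated, and 3 of 13 higher (Jun, Dusp1 and Hspa1b) and 1 lower (Atf3) in hydrogel over untreated. These genes can also be induced while tissue is digested, and their part in the other differences was not tested. Hmox1, which encodes the enzyme that makes carbon monoxide from heme, had 16, 51 and 20 UMIs in 14, 40 and 11 members, with a ratio of -0.90 for CO hydrogel over hydrogel. Of the 6 readable genes of the heme oxygenase and antioxidant list, 0 were past 2-fold in that comparison. Without the Siglech program 2 of the 6 were, Fth1, a ferritin chain, at -1.40 and Hmox1 at -1.11, and both stayed past it when barcodes rich in another class were left out too. In CO hydrogel over untreated, 0 of 4 readable genes were past 2-fold under each of these settings. Of the 6 genes read in CO hydrogel over hydrogel, 3 were over 5 times higher in another cell class than in the members. The list's median there was -0.56 over all 6 and -0.47 over the other 3. The part of RNA from other classes in the Hmox1 and Fth1 ratios was not tested.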

How the data were processed

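The 3 libraries were measured by 10x Genomics 3' single-cell RNA sequencing of dissociated wound skin. The authors deposited 1 matrix of UMI counts per library, with whole numbers per gene and barcode and no normalization. Cell Ranger 6.0.1 wrote the matrices, per the file headers. A later version (7.0.0) is listed in the submitters' processing notes, together with the build rn6, Seurat 4.2.0 and DESeq 1.38.0. Red cells were lysed before loading, per the labels' protocols. The tables list 32883 features, and 13 of 273 listed genes had no row (Trac, Trbc2, Trdc and Trgc1 among them) and are not analysed here.

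Members were found by the stated rule from the deposited counts. Other classes needed at least 3 of their markers, and the cytotoxic class a UMI of at least 2 of Prf1, Gzmm and Klrd1 and none of the other excluded genes. Counts were summed over members and divided by their total to give CPM. With 1 library per group no model was fitted. Shares have exact binomial intervals, levels exact Poisson intervals and ratios conditional binomial intervals. A count of 0 was set to 3 UMIs per library as a floor. Thinning to 1000 UMIs was random with a fixed seed. Genes were named by fixed rules: the 15 leading genes, the 10 highest and 10 lowest ratios per comparison among genes found in at least 10% of members and not over 5 times higher in a neutrophil, macrophage, fibroblast, endothelial, mural, mast or keratinocyte class, the 12 highest and 12 lowest ratios by Il17a, and the listed genes. The members, lists and rules were chosen with earlier results of these data known. Scrublet (scanpy 1.11.5) marked 502, 307 and 0 barcodes of the CO hydrogel, hydrogel and untreated libraries at its own threshold, so it had not worked in the last. A fixed share of 0.8% per 1000 barcodes was used instead, as an alternative only, and marked 5, 12 and 2 members. TMM factors came from edgeR 4.0.16 in R 4.3.3. Python 3.11.15, numpy 2.4.6, scipy 1.17.1, pandas 2.3.3 and matplotlib 3.10.9 were used. The scripts were checked on simulated data.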

Additional observations from a re-analysis of the deposited data

How the results depend on the processing

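Of the values recomputed under planned settings, 83 stayed within their interval or within 1.5 times the count and 26 moved. Under added settings 33 stayed and 13 moved. No paired analysis was possible because each group has 1 library and the labels give no replicate numbers, and for the same reason no replicate could be left out. Settings on the Siglech program, on other-class markers, on cytotoxic barcodes and on the 3 richest barcodes were chosen after seeing the data. Asking for 3 of the 7 T genes gave shares of 0.670% (CO hydrogel) and 0.711% (hydrogel), 1915 Il17a CPM in hydrogel members and 134 genes higher in hydrogel than in untreated members. Allowing 1 UMI of Csf1r, C1qa, Csf3r and Pdgfra gave shares of 1.07% (CO hydrogel) and 1.14% (hydrogel), 1409 (hydrogel) and 1186 (untreated) Il17a CPM, 128 genes higher and 227 lower in CO hydrogel than in hydrogel, and 223 higher and 85 lower in CO hydrogel than in untreated members. Keeping barcodes with Prf1, Gzmm or Klrd1 gave shares of 1.54%, 1.66% and 0.577% (CO hydrogel, hydrogel, untreated) and 2080 (hydrogel) and 646 (untreated) Il17a CPM. Leaving neutrophils out of the total gave shares of 1.13% (hydrogel) and 0.759% (untreated). Removing doublets gave 1875 Il17a CPM in hydrogel members, and leaving out the Siglech program 1928. Leaving out also barcodes rich in another class gave 751 (CO hydrogel) and 2089 (hydrogel) Il17a CPM, and 88 genes higher in CO hydrogel and 119 in hydrogel than in untreated members. A mean over barcodes gave 744 (CO hydrogel) and 447 (untreated) Il17a CPM and 47 genes lower in hydrogel than in untreated members. Without the 3 richest barcodes the Il17a CPM was 410, 1141 and 38.3. With no minimum count, 1960 genes were higher and 1560 lower in CO hydrogel than in hydrogel, 2529 and 1771 in CO hydrogel than in untreated, and 1863 and 1330 in hydrogel than in untreated members. Without thinning, 130 genes were higher and 457 lower in Il17a-positive members. Shares of Il17a-positive members stayed within their main intervals under the alternatives run, but the untreated interval is wide (6.64% to 30.1%). The untreated share was 9.09% after thinning and 22.6% with 1 UMI of Csf1r, C1qa, Csf3r and Pdgfra allowed. At the latter setting the CO hydrogel share was 22.5% and the hydrogel share 26.4%. The cause of the moves was not tested, except that the minimum count sets how many genes are read. Depth limits these data: 44 untreated members with 208052 UMIs leave most cytokine genes below the minimum count.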
